A study of Mus musculus with 10 samples.

Results

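The transcripts described here are those of 6 ligands of the epidermal growth factor (EGF) family (Areg, Ereg, Hbegf, Tgfa, Btc and Epgn), 3 receptors (Egfr, Erbb2 and Erbb3) and the feedback inhibitor Errfi1. They were chosen by gene symbol, and all 10 symbols were found once each among the 56691 rows of the expression table. The RNA came from mouse esophageal epithelium, stripped of muscle and freed of mesenchyme with Dispase, in 5 wild-type (WT) and 5 Mst1/2 knockout libraries. The knockout mice are p63CreERT2;Mst1loxp/loxp;Mst2-/-. By this genotype Mst2 is lacking in every cell, and Mst1 is lost where a tamoxifen-inducible Cre named for p63, a transcription factor of basal squamous cells, is active. Animals of both groups were given tamoxifen at 100 mg/kg as 3 doses with 2 weeks between doses, and epithelium was collected after about 8 weeks. Age, strain and whether the wild-type mice carry the Cre allele were not given. No label ties a library to a mouse of its own, and the p-values therefore measure the spread between these samples, which may be technical. Levels are in FPKM, fragment numbers scaled by gene length and by the size of the library, so levels of different genes can be set side by side.

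EGF family ligands are made as membrane-anchored precursors that metalloproteinases of the ADAM family release. The freed ligands bind receptor tyrosine kinases of the ERBB family: all 6 ligands here bind EGFR, while ERBB2 has no known ligand of its own and acts as a partner, and ERBB3, which has little kinase activity, binds neuregulins. Active receptors signal through RAS and ERK and through PI3K and AKT, and in stratified squamous epithelium EGFR is best known in the basal layer, where it promotes proliferation. Errfi1 encodes MIG6, a cytoplasmic protein induced by ERK signalling that binds EGFR and blocks its kinase. Several of the ligand genes are themselves induced by ERK and by stress.

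Of these 10 transcripts, 2 ligands rose in knockout and none fell. Hbegf, heparin-binding EGF-like growth factor, went from 6.19 ± 1.83 to 24.7 ± 13.5 FPKM and Epgn, epithelial mitogen, from 0.41 ± 0.298 to 1.44 ± 0.408 FPKM (SD, n = 5 and 5). Over all 11386 tested genes 7.9% were called higher and 4.96% lower (limma, Benjamini-Hochberg adjusted p under 0.05), 12.9% in either direction, and the 2 of 10 members called higher stand beside the 7.9%. Of these 2, Epgn passed the filter on low values (1 FPKM in 5 libraries) only through the knockout group, so its call adds nothing to that count. What remains is the call of Hbegf, and 1 gene does not set the members apart from the share over all genes. With the filter at 5 FPKM, 1 of 7 tested members was called higher, beside 686 of 6510 genes. The median log2 difference of the members was -0.0037, beside 0.06 over all tested genes. The other 4 ligands, the 3 receptors and Errfi1 did not pass the test.

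The 4 ligand genes Epgn, Ereg, Areg and Btc are consecutive protein-coding genes on chromosome 5, in that order in RefSeq. The 250 bases before the start site are shown for those of the 4 that have a promoter entry, because Epgn rose and the others did not pass. Sequences are from RefSeq on GRCm38.p6 and read 5′ to 3′ on the gene's strand, at chr5:91027267-91027516, plus strand for Epgn, chr5:91139349-91139598, plus strand for Areg and chr5:91402995-91403244, minus strand for Btc, all positions in that build. Capitals mark a match to the cyclic AMP response element TGACGTCA, which is present in 1 of the 3 windows.
Epgn: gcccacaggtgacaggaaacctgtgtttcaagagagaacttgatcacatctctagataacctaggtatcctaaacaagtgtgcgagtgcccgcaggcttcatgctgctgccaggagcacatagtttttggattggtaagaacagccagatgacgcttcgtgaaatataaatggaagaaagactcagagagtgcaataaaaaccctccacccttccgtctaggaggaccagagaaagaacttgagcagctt
Areg: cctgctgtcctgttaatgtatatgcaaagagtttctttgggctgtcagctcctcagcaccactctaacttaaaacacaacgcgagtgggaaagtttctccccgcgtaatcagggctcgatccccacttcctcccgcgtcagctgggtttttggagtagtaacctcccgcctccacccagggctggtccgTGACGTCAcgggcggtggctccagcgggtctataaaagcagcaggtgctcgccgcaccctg
Btc: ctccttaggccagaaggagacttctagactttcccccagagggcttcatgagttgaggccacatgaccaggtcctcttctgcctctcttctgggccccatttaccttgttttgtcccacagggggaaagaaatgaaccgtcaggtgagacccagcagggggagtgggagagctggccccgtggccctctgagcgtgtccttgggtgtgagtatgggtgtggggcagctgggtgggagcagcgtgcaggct
The match in the Areg window begins 61 bases before the start site. Both strands were searched for that element, the TEAD motif GGAATG, the AP-1 motif TGANTCA, the E-box CACGTG and the CArG box of the serum response element. Neither the Epgn nor the Btc window held any of these letters. Of 32851 promoter windows of the same length, 1.55% held TGACGTCA, 12.6% GGAATG, 6.75% TGANTCA, 6.02% CACGTG and 1.47% the CArG box. In all, 7 of the 10 members have a promoter entry.

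In wild-type epithelium the ligand with the highest level was Ereg, epiregulin, and Epgn had the lowest. Mean wild-type levels ran from 42 FPKM for Ereg through 32.6 for Erbb2, 28.7 for Erbb3, 21.6 for Errfi1, 14.6 for Egfr, 13.7 for Tgfa, 6.19 for Hbegf, 3.69 for Btc and 1.98 for Areg to 0.41 FPKM for Epgn. The wild-type ranges of neighbours in this order overlapped except between Errfi1 and Egfr, between Tgfa and Hbegf, and between Areg and Epgn. By knockout means Hbegf stood between Erbb3 and Errfi1, with a range that overlapped both, and Areg stood above Btc, also with overlapping ranges. By knockout medians Hbegf (18.1 FPKM) was below Errfi1 (21.5 FPKM), and Areg (1.92 FPKM) was below Btc (2.78 FPKM).

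**Figure D1:**
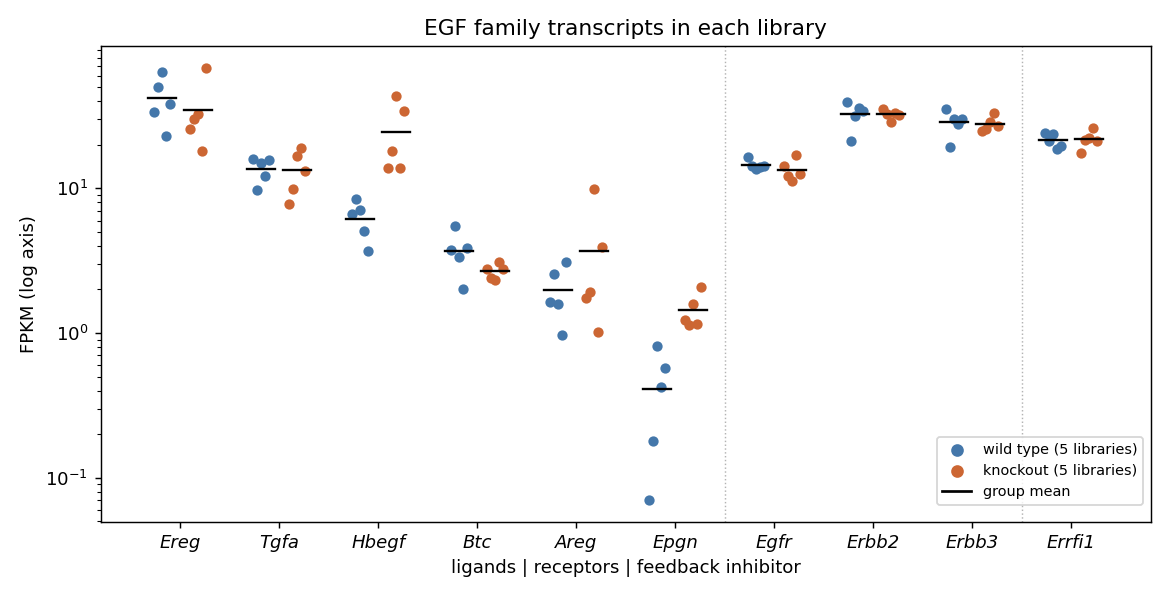
FPKM (log axis) of the 10 EGF family transcripts in each of 5 wild-type and 5 knockout libraries, with group means as black bars and dotted lines between ligands, receptors and Errfi1. The knockout points of Hbegf, from 13.8 FPKM up, and of Epgn, from 1.13 FPKM up, lie above all wild-type points, while the groups overlap for the other 8 genes. For Epgn this separation follows from how it passed the filter on low values.

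Hbegf is a ligand of EGFR and ERBB4 that binds heparan sulfate and is induced in wounded epithelium. Its level in wild-type libraries 1 to 5 was 6.69, 8.41, 7.08, 5.06 and 3.71 FPKM, and in knockout libraries 1 to 5 it was 13.8, 18.1, 43.7, 13.9 and 34.1 FPKM. The groups did not overlap, which held for 10.5% of tested genes in either direction and for 6.62% with knockout higher. Knockout 3 and knockout 5 were the highest, and the other 3 knockout libraries lay between 13.8 and 18.1 FPKM. The ratio of the group means was 4.00, and 3.23 without knockout 3. On the log2(FPKM + 1) scale the difference was 1.73 (SE 0.33; 95% interval 1.01 to 2.44; limma adjusted p = 0.00661). The level rested on about 295 to 2932 fragments per library.

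Epgn encodes epigen, a low-affinity EGFR ligand of epithelia. Its wild-type libraries had 0.07, 0.18, 0.81, 0.42 and 0.57 FPKM, and its knockout libraries 1.23, 1.13, 1.6, 1.16 and 2.09 FPKM. The groups did not overlap, with a small gap between wild type 3 and knockout 2. These values are low: they correspond to about 1.91, 5.1, 21.1, 11 and 16.9 fragments in wild type and 29, 28.9, 40.1, 28.9 and 56.9 fragments in knockout. Epgn reached 1 FPKM in the 5 knockout libraries and in no wild-type library, so it passed the filter on low values only through the group in which it was higher. The lack of overlap follows from passing in this way and is no separate result. The log2 difference was 0.80 (SE 0.17; 95% interval 0.44 to 1.16; limma adjusted p = 0.00882), a scale that understates changes of low genes, and the ratio of means was 3.52.

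Areg, amphiregulin, a heparin-binding EGFR ligand known as a YAP target in other cells, had the largest relative spread of the 10 members between knockout libraries (coefficient of variation 98%), although Ereg and Hbegf had larger SDs in FPKM. It had 1.64, 2.57, 1.6, 0.97 and 3.1 FPKM in wild-type libraries and 1.76, 1.92, 9.91, 1.01 and 3.94 FPKM in knockout. Only knockout 3 and knockout 5 exceeded the highest wild-type library. The knockout mean of 3.71 ± 3.63 FPKM rested on knockout 3, without which it was 2.16 FPKM, beside 1.98 ± 0.849 FPKM in wild type. The log2 difference of 0.43 had a 95% interval of -0.48 to 1.33 and did not pass (limma adjusted p = 0.526).

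Ereg, a broad ligand of EGFR and ERBB4 and the most abundant ligand transcript in wild type, also varied widely. Its wild-type libraries had 34.1, 50.6, 63.9, 22.9 and 38.5 FPKM and its knockout libraries 25.7, 30.45, 32.6, 18 and 68.6 FPKM. Knockout 5 was the highest of all 10 libraries and knockout 4 the lowest. The log2 difference was -0.31 (95% interval -1.07 to 0.45; limma adjusted p = 0.583). An annotated antisense gene, Gm19610, covers 3.42% of the exon bases of Ereg and lay at no more than 1.88 FPKM. Whether the counting used strand was not stated.

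Tgfa, transforming growth factor alpha, the classical autocrine EGFR ligand of keratinocytes, had 16.1, 9.8, 15, 12.1 and 15.6 FPKM in wild-type libraries and 7.83, 9.85, 16.7, 19 and 13.2 FPKM in knockout. Knockout 4 was its highest library, where Hbegf and Ereg were at or near their lowest knockout levels. Its log2 difference was -0.08 (95% interval -0.56 to 0.39; limma adjusted p = 0.839). Btc, betacellulin, which binds EGFR and ERBB4, had 3.75, 5.48, 3.35, 2.03 and 3.86 FPKM in wild-type libraries against 2.79, 2.39, 2.33, 3.09 and 2.78 FPKM in knockout. Wild type 4 was below every knockout library and the other 4 wild-type libraries were above all of them. Btc did not pass over the 10 libraries (log2 difference -0.32, 95% interval -0.68 to 0.05, limma adjusted p = 0.236), but did without wild type 4 (log2 difference -0.46, limma adjusted p = 0.0445).

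**Figure D2:**
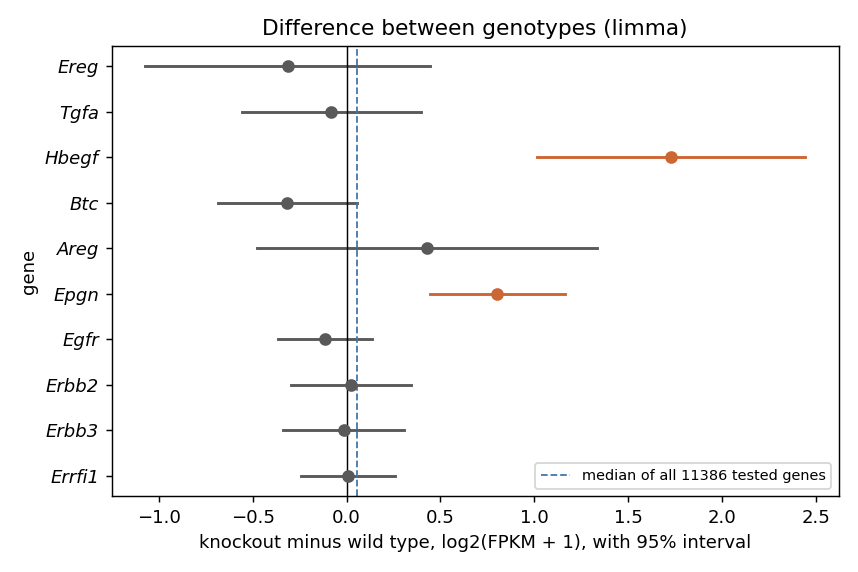
Knockout minus wild type on the log2(FPKM + 1) scale for the 10 transcripts, with 95% intervals from limma and 5 libraries per group; orange marks the 2 genes with an adjusted p under 0.05 and the dashed line is the median of all 11386 tested genes, 0.06. The intervals of Hbegf and Epgn lie above 0, and those of the receptors and Errfi1 reach at most 0.36 to either side.

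The receptors and Errfi1 differed little between the genotypes. Egfr had 16.6, 14.3, 13.7, 14 and 14.2 FPKM in wild-type libraries and 14.3, 12.2, 11.2, 17 and 12.6 FPKM in knockout. Its log2 difference was -0.11, with a 95% interval of -0.36 to 0.13 (limma adjusted p = 0.539). Erbb2, the partner receptor, had 39.5, 21.3, 31.5, 36.2 and 34.4 FPKM in wild-type libraries and 35.4, 32.6, 28.9, 33.2 and 32.3 FPKM in knockout, so that wild type 2 was below all other libraries. The intervals of the log2 difference were -0.30 to 0.34 for Erbb2 and -0.34 to 0.31 for Erbb3, the neuregulin receptor, with adjusted p-values of 0.943 and 0.961 (limma). Erbb3 lay between 19.4 and 35.5 FPKM in wild-type libraries and between 24.9 and 33.3 FPKM in knockout, with wild type 2 again the lowest. Errfi1 had 24.1, 21.4, 23.9, 18.8 and 19.8 FPKM in wild-type libraries and 17.7, 21.5, 22.5, 26.2 and 21.25 FPKM in knockout, with a log2 difference of 0.01 (95% interval -0.24 to 0.26; limma adjusted p = 0.973). These intervals do not show that the levels are equal; they bound the difference. Within a library Erbb2 was 1.49 to 2.58 times the Egfr level in wild type and 1.95 to 2.67 times in knockout, and Erbb3 1.36 to 2.22 times and 1.74 to 2.58 times.

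The makeup of the ligand transcripts differed more than their sum. The 6 ligands together had 68 ± 17.9 FPKM in wild-type libraries and 81 ± 32.7 FPKM in knockout (SD, n = 5 and 5), with overlapping ranges of 43.5 to 91.7 and 53.1 to 125 FPKM. Ereg made up 52.6% to 69.7% of this sum in wild type and 30.5% to 55% in knockout. Hbegf made up 5.68% to 11.6% in wild-type libraries and 24.8% to 40.9% in knockout, without overlap, and Tgfa 12.7% to 27.9% and 10.6% to 33.8%. These shares restate the levels given above. More Hbegf by itself lowers the share of Ereg, whose own level did not pass the test. A scaling factor common to all genes of a library cancels in ratios within it, though quantile normalization can still change them. Hbegf was 0.0965 to 0.221 times the Ereg level within wild-type libraries and 0.498 to 1.34 times within knockout libraries. Relative to Tgfa it was 0.238 to 0.858 in wild-type libraries and 0.733 to 2.61 in knockout, where the ranges overlap through wild type 2 and knockout 4. Ligand transcript per receptor transcript, each summed, was 0.936 ± 0.359 and 1.11 ± 0.492.

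**Figure D3:**
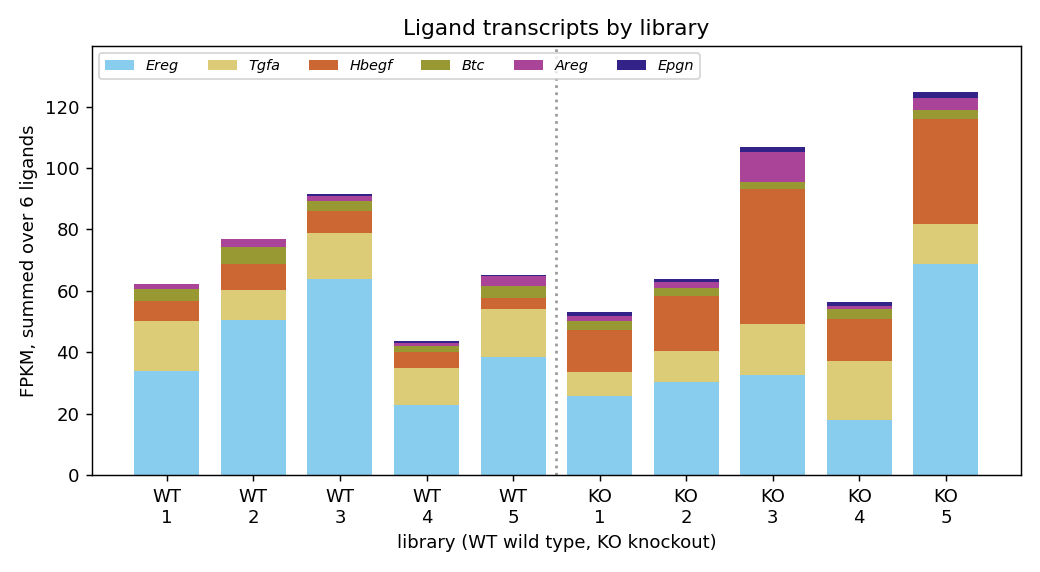
Stacked FPKM of the 6 ligand transcripts in each of the 10 libraries (bars start at 0). The orange segment, Hbegf, takes up 24.8% to 40.9% of the bar in knockout and 5.68% to 11.6% in wild type, and knockout 3 and 5 have the tallest bars, at 107 and 125 FPKM.

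Among the other family members, transcripts of the receptor Erbb4 and of neuregulin 3 were listed at 0 in all libraries. Egf itself was at 0.36 to 1.03 FPKM. Nrg2, neuregulin 2, a ligand of ERBB3 and ERBB4, was the only one of these 6 genes with enough signal to be tested, with 1.46 ± 0.374 FPKM in wild-type libraries and 2.58 ± 1.05 FPKM in knockout libraries (n = 5 and 5, SD; limma adjusted p = 0.0951). Of 9 tested sheddases and their partners 0 passed by limma, beside 12.9% called over all genes, and 1 had an unadjusted p under 0.05, which 29.7% of all tested genes had. The chief sheddase of the family, Adam17, had 13 to 15.7 FPKM in wild-type libraries and 12.7 to 16.9 FPKM in knockout, and the 2 with the smallest p were Adam8 (limma adjusted p = 0.144) and Frmd8, which stabilises the iRhom partners of ADAM17 (0.214). Of 19 adaptors and kinases of the RAS-ERK cascade 0 passed, with 2 at an unadjusted p under 0.05, among them the ERK kinase gene Map2k1 (43.4 ± 5.93 and 51.7 ± 2.9 FPKM; limma adjusted p = 0.135). The ERK-activated kinase gene Rps6ka3 came next (limma adjusted p = 0.157). Of 15 genes of the PI3K, phospholipase C and STAT branches 0 passed, with 1 at an unadjusted p under 0.05, the transcription factor gene Stat5a (2.37 ± 0.369 and 1.75 ± 0.164 FPKM; limma adjusted p = 0.0872). The groups did not overlap for 1 of the 15, Stat5a, narrowly (at least 1.95 FPKM in wild type and at most 1.91 FPKM in knockout). Over all 11386 tested genes 442 were lower in knockout without overlap. The Stat5a paralog Stat5b followed (limma adjusted p = 0.323).

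Of 20 tested genes that restrain or degrade the receptors, 1 fell and none rose, a share like the 4.96% called lower over all genes. Vps25, a subunit of the ESCRT-II complex that sorts receptors for degradation, had 1.39 ± 0.124 FPKM in the wild-type libraries against 0.88 ± 0.0656 FPKM (n = 5 and 5, SD; limma adjusted p = 0.0317). It reached 1 FPKM in the 5 wild-type libraries and in no knockout library, and so passed the filter on low values only through the group in which it was higher. That call was lost without any one of wild type 1, 4 or 5 or knockout 1, 2, 3 or 5 (limma adjusted p = 0.0586 to 0.0798). The median log2 difference of these 20 genes was -0.0027.

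Genes that ERK signalling induces rose in part. Of 16 tested feedback and immediate target genes 6 rose and none fell, beside 7.9% called higher over all genes. Their median log2 difference was 0.27, and 11 of the 16 differences were positive. An unadjusted p under 0.05 (limma) held for 9 of them, beside 29.7% of all tested genes. Among these 9, Spry1 and Spred2 were lower in knockout (log2 difference -0.43 and -0.36). Ier3, an immediate early survival gene, had 52.2, 55.7, 66.4, 47.8 and 36.8 FPKM in wild-type libraries and 77.9, 98.5, 142, 93.9 and 119 FPKM in knockout (limma adjusted p = 0.00383). Dusp6, the phosphatase that inactivates ERK, had 2.69, 3.16, 2.92, 4.43 and 2.58 FPKM against 5.89, 4.9, 9, 4.9 and 8.57 FPKM (limma adjusted p = 0.00902). The groups did not overlap for 3 of the 16 genes, all higher in knockout, which held for 6.62% of all tested genes. These were Ier3, Dusp6 and, narrowly, Phlda1 (at most 6.83 FPKM in wild type and at least 6.91 FPKM in knockout). The calls of Ier3 and Dusp6 were not lost when a single library was left out.

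Besides Ier3 and Dusp6, the genes that rose were Junb, Fos and Egr1, immediate early transcription factors, and Phlda1. Egr1 went from 5.15 ± 1.82 to 19.1 ± 11.8 FPKM, Fos from 3.26 ± 1.31 to 11.6 ± 6.61 FPKM, Junb from 49.7 ± 6.04 to 79 ± 20 FPKM and Phlda1 from 5.08 ± 1.17 to 15.4 ± 10.2 FPKM (n = 5 and 5, SD; limma adjusted p = 0.0349, 0.0305, 0.0278 and 0.0364). These 4 calls were lost when single libraries were left out: Egr1 without wild type 2, 3 or 5 or knockout 2, 3 or 5 (limma adjusted p = 0.0526 to 0.0793), and Fos without wild type 1, 3 or 5 or knockout 2, 3 or 5 (0.0524 to 0.0779). Junb lost its call without wild type 1 or 5 or knockout 2, 3 or 5 (limma adjusted p = 0.0509 to 0.0714), and Phlda1 without any single wild-type library, knockout 2 or knockout 5 (0.0524 to 0.0886). The feedback genes Spry1 and Spry2, which damp RAS-ERK signalling, had 5.51 ± 1.76 and 3.78 ± 1.75 FPKM in wild-type libraries against 3.76 ± 0.85 and 2.37 ± 0.784 FPKM in knockout libraries (limma adjusted p = 0.161 and 0.247).

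Of the knockout libraries, those with the most Hbegf were also high in these genes. Knockout 3 and knockout 5 were the highest knockout libraries for Hbegf, Areg, Ereg and Epgn, and for 5 of the 6 feedback genes that rose, all except Fos. For Egr1 they had 32.4 and 30.4 FPKM, and the other 3 had 6.28 to 15.95 FPKM. In wild type the order was mixed. Wild type 2, with the most Hbegf of that group, had its highest Fos, 5.34 FPKM, and its lowest Junb and Phlda1, 43.6 and 3.85 FPKM. Knockout 4 had the lowest Egr1 and Fos of the knockout libraries, at 6.28 and 4.4 FPKM. Its Hbegf, Ier3 and Dusp6, at 13.9, 93.9 and 4.9 FPKM, lay above every wild-type library. The part of these genes in the difference of Hbegf was not tested.

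**Figure D4:**
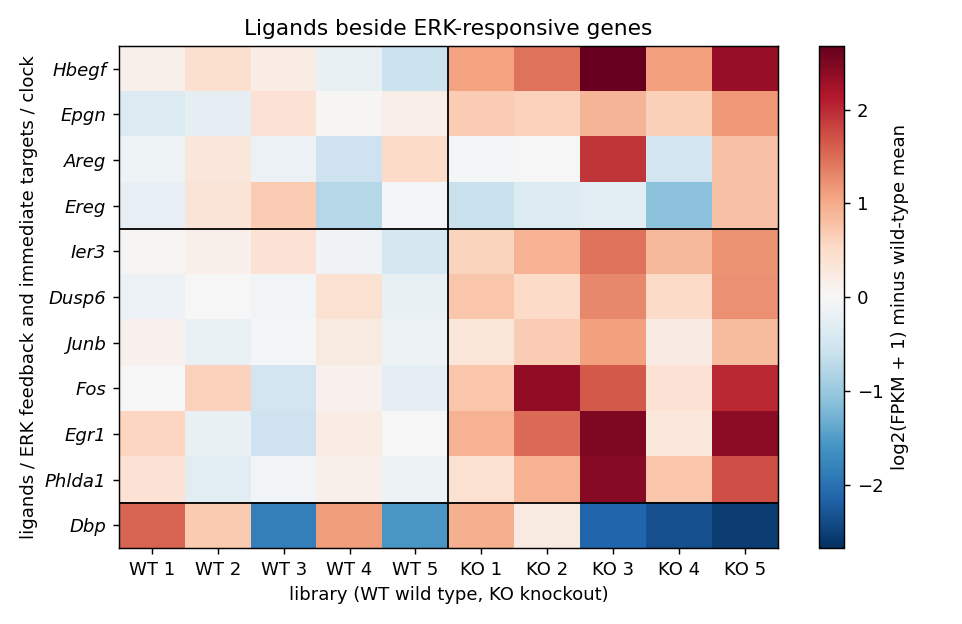
Difference of log2(FPKM + 1) from the wild-type mean, by colour, for 4 ligands (top), the 6 feedback and immediate target genes that rose (middle) and the clock output gene Dbp (bottom) in each library. Knockout 3 and 5 are the darkest red columns for Hbegf, Egr1 and Phlda1, while Dbp is low in wild type 3 and 5 and in knockout 3, 4 and 5.

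The libraries also differed in the level of clock output genes, which follow the time of day. Dbp, a clock-controlled transcription factor, was at 8.45 to 22.6 FPKM in wild type 1, 2 and 4 and knockout 1 and 2, and at 0.38 to 1.73 FPKM in the other 5. Within the libraries of high Dbp, Hbegf had 6.69, 8.41 and 5.06 FPKM in wild-type libraries and 13.8 and 18.1 FPKM in knockout, a log2 difference of 1.15 (limma adjusted p = 0.0315). Within those of low Dbp it had 7.08 and 3.71 FPKM in wild-type libraries and 43.7, 13.9 and 34.1 FPKM in knockout, a log2 difference of 2.21 that did not pass (limma adjusted p = 0.106). Epgn differed by 0.84 and 0.62 in the same classes (limma adjusted p = 0.0664 and 0.153). With a score of 4 clock output genes as covariate, both remained past the threshold over all 10 libraries, at 1.505 for Hbegf and 0.60 for Epgn (limma adjusted p = 0.0249 and 0.0189). In that fit Ier3 and Dusp6 also passed, but Junb, Fos, Egr1 and Phlda1 did not (limma adjusted p = 0.0639, 0.0523, 0.076 and 0.0991).

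Among the tested genes whose deviations from their own genotype mean lay closest to those of Hbegf over the 10 libraries were Gm10705 and Cdkn1a. Their mean absolute differences from Hbegf were 0.261 and 0.375 SD, against a median of 1.22 SD over all genes. Cdkn1a, the cell cycle inhibitor p21, had 105 ± 11.7 FPKM in wild-type libraries and 107 ± 16.7 FPKM in knockout (SD, n = 5 and 5). For Epgn the closest were Mb21d2 and the mitotic genes Aurkb and Cdca5, at 0.23, 0.247 and 0.281 SD, with 2.22 ± 1.53 and 3.94 ± 1.63 FPKM for Aurkb. This is a likeness of pattern in libraries that share their scaling.

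The defining keratins of esophageal epithelium were abundant, and markers of other cells were mostly near 0. Krt13 and Krt4, the suprabasal keratins, exceeded 22771 FPKM in every library, and the basal keratin Krt5 lay between 1275 and 2825 FPKM. Crnn, a marker of late squamous differentiation, was at no more than 0.43 FPKM. Other markers of the epithelial layers moved with genotype. Trp63, the basal transcription factor gene for which the Cre is named, fell from 38.8 ± 5.45 to 22.6 ± 3.58 FPKM without overlap, and the basal hemidesmosome gene Col17a1 fell from 133 ± 38.1 to 75.8 ± 24 FPKM (n = 5 and 5, SD; limma adjusted p = 0.00293 and 0.0444). The other 5 of 7 basal markers did not pass. Of 5 tested suprabasal markers Krt78 fell from 732 ± 124 to 392 ± 165 FPKM and the cornified envelope gene Sprr3 rose from 4895 ± 1725 to 8574 ± 513 FPKM (n = 5 and 5, SD; limma adjusted p = 0.0385 and 0.0219), and Krt4, Krt13 and Tgm3 did not pass. All 5 endothelial, 8 muscle and 5 T cell markers were under 1 FPKM in all libraries. So were 5 of 6 fibroblast markers, whose summed level of 4.44 to 13.6 FPKM in wild-type libraries and 0.07 to 1.13 FPKM in knockout was nearly all Dcn. This sum had the smallest p that 252 assignments allow (exact permutation test, two-sided p = 0.00794; 0.0873 adjusted over 11 marker lists), with Col1a2 at 0 and Col1a1 and Col3a1 at no more than 0.02 FPKM. Of 5 Schwann cell markers 4 were under 1 FPKM, with Sox10 and Cdh19 at 0. Their sum, nearly all Mbp, was 7.17 to 10.9 and 5.53 to 7.83 FPKM (exact permutation test, two-sided p = 0.0159, adjusted 0.0874). Of 5 neutrophil markers Ly6g was at 0 in every library, and Mpo and Elane were under 1 FPKM. The sum of that list, 3.7 to 40.3 FPKM in wild-type libraries and 18.2 to 464 FPKM in knockout, came from S100a8, which keratinocytes also make, and the chemokine receptor gene Cxcr2. S100a8 was highest in knockout 3 and 5, at 463 and 423 FPKM, and Cxcr2 had 1.41 to 8.04 FPKM in wild type and 1.35 to 8.46 FPKM in knockout. The sum of the list had p = 0.0476 (exact permutation test, two-sided, adjusted 0.175). The macrophage and Langerhans cell sum was 7.15 to 13.5 and 10.6 to 19 FPKM (exact permutation test, two-sided p = 0.0635, adjusted 0.175). The melanocyte list stayed at or below 1.09 FPKM. The parts of these genes in the differences of Hbegf and Epgn were not tested. In bulk RNA, fewer cells that express a gene cannot be told apart from less RNA per cell.

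The series as a whole gives the frame for these values. Libraries held an estimated 13070000 to 16450000 fragments, and 10878 to 11606 genes reached 1 FPKM. Stk3, the gene of Mst2, fell to at most 0.25 FPKM in knockout from at least 2.08 FPKM, while Stk4, the gene of Mst1, had 12.2 to 17.4 against 17 to 22.7 FPKM, a sum over the whole gene that cannot show a deletion of single exons. Over all tested genes 900 were higher and 565 lower, 61.4% of calls higher, a share that was 46.6% with median-ratio scaling and 47.9% with quantile normalization.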

How the data were processed

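Libraries of total RNA from 10 samples were sequenced from both ends, per the labels. The authors deposited FPKM values per Ensembl gene with 2 decimals. The tools were cutadapt, the aligner HISAT2 2.0.1 and the counter HTSeq 0.6.1, with build mm9, per the submitters' processing notes. Settings, gene annotation, strand use and the scaling total: not given in the sources used here. Each column was matched to a sample by its title, and no column was left unused.

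Genes reaching 1 FPKM in 5 or more libraries were tested as log2(FPKM + 1) with limma 3.58.1 in R 4.3.3: a model of genotype alone, moderated variances with a mean trend and robust settings, Benjamini-Hochberg adjustment over all 11386 genes, threshold 0.05. On simulated data with 5 and 5 libraries and the means and spread of these genes the test recovered 37.3%, 85.4% and 99.1% of changes of 0.5, 1 and 2 log2 units, with 4.9% of its calls false. In the simulation genes varied independently and only a small part was changed, so these shares may not carry over to the real libraries. Depth was estimated from single-exon genes up to 1200 bases in GENCODE M21, as the fragment total at which most values are whole within 0.01 fragments beyond rounding (96.5% to 98.3%, against 6.82% to 7.76% at the median total tried). Fragment numbers per gene use the merged exon length there, and a member shares at most 0.0295 of its 31-base sequences with another gene. Marker sums were compared by exact two-sided permutation over libraries. Python 3.11.15, numpy 2.4.6, pandas 2.3.3 and matplotlib 3.10.9 were used.

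The members and lists were chosen with earlier results of these data known. The genes named are all members; of each other pathway list those past the threshold, up to 6, or else the 2 with the smallest p; the most abundant gene of a marker list; for each called member the 3 genes closest in mean absolute difference of standardized deviations; and Stk3 and Stk4. One gene that this rule names is not reported here. Egf, Nrg3, Erbb4, Adam17, Spry1, Spry2, Spred2, Krt4, Krt78, Sprr3, Tgm3, Trp63, Col17a1, Crnn, Cxcr2, Dbp, Col1a1, Col1a2, Col3a1, Sox10, Cdh19, Ly6g, Mpo, Elane and the antisense gene were named after their values were seen. The repeats within high and low Dbp were added after seeing the data.

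Same-numbered libraries deviated from their group means with correlations of 0.0609, 0.423, 0.194, -0.241 and 0.107 across genes, so the replicate numbers were not taken to pair samples.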

Additional observations from a re-analysis of the deposited data

Results flagged for a closer look

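Ereg in knockout 5, at 68.6 FPKM, stood far above the other knockout libraries, which had 18 to 32.6 FPKM. Its gap to the next library was 0.712 of the range of its group, against a critical value of 0.71 for 5 samples, so it lies at the border. Egfr in wild type 1, at 16.6 FPKM, stood above the other wild-type libraries, which had 13.7 to 14.3 FPKM, with a gap of 0.797 of the range. Of 20 groups screened this way chance alone marks about 1 in 20. Neither gene passed the test between genotypes with or without these libraries.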

How the results depend on the processing

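Outside the split by Dbp described in the report, Hbegf kept its call in every alternative, with log2 differences of 1.31 to 1.89 and limma adjusted p-values of 0.00377 to 0.0249. So did Epgn in those in which it was tested (0.25 to 1.80, the extremes being the pseudocounts 5 and 0.1). In the split Hbegf kept its call within high Dbp and lost it within low Dbp (limma adjusted p = 0.0315 and 0.106), and Epgn lost its call in both. With a filter at 5 FPKM, 1 member was called higher, as Epgn was not tested. Leaving out single libraries left 2 members called higher and between 0 and 1 lower (Btc, without wild type 4). Genes called over the whole table then numbered 436 to 1091 higher and 357 to 679 lower, and pathway genes outside the members 2 to 7 higher and 0 to 2 lower. Within high and low Dbp, added after seeing the data, 1 and 0 members, 206 and 203 of all genes and 0 pathway genes were higher, and 0 members, 230 and 181 of all genes and 0 pathway genes lower, with 3 or fewer libraries per group. Without a filter 511 genes and 2 pathway genes were higher; with sample weights 1390 genes were higher; at 5 FPKM 329 genes and 0 pathway genes were lower; and 2 pathway genes were lower after median ratios, with sample weights and with the clock covariate.

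Members near 0 changed sign without passing: Erbb2 to -0.045, -0.0768 and -0.0595 (median ratios, quantile normalization, sample weights) and to -0.0641 (low Dbp), Errfi1 to -0.0577, -0.0692 and -0.0585 (median ratios, quantile normalization, clock covariate) and to -0.127 (high Dbp), and Tgfa to 0.0733 (low Dbp). Over single libraries left out the ranges were -0.118 to 0.0966 for Erbb2, -0.0574 to 0.0778 for Errfi1, -0.219 to 0.0759 for Tgfa and -0.145 to 0.0652 for Erbb3. With the replicate number as a block, 773 genes were higher and 551 lower, and Hbegf (adjusted p = 0.0196) and Epgn (0.00635) were past the threshold, while Vps25, Junb, Egr1 and Phlda1 were not (0.068, 0.0548, 0.0893 and 0.0719). Of 5 wild-type libraries 1 correlated best with its own number. The cause of these changes was not tested. Depth limits Epgn most, with 2 to 57 fragments per library, and then Areg, with 17 to 167.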
